A study of Mus musculus with 11 samples.

Results

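The genes described here act in the G2 phase of the cell cycle and in mitosis, the stages in which a cell that has copied its DNA prepares to divide and then separates its chromosomes. They were named as a list of 36 genes, and 35 of them were measured among the 18193 genes of the arrays. Ccnb1, the gene of cyclin B1, was not analysed here. Expression was measured on 11 Affymetrix arrays, 1 per sample. The mice were 6 to 8 weeks old, and T cells from spleen and lymph nodes were selected on CD4 and then sorted, on GFP among other properties. The GFPKO group (n = 3) was GFP+ CD4+ cells from Foxp3 GFPKO/WT mice, in which GFP reports a Foxp3 allele that makes no functional protein and the other allele is wild type. The Treg group (n = 5) was Foxp3-positive CD4+ cells, Foxp3 being the transcription factor of regulatory T cells. The TN group (n = 3) was naive CD4+ cells without Foxp3. The genotype of the mice behind the Treg and TN arrays was not given in the sources used here. Whether the samples within a group stem from different animals is not stated, and each p-value therefore reflects only the spread among these arrays, which may be technical.

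Naive T cells rest outside the cell cycle, and a share of regulatory T cells divides in the unstimulated animal. Entry into mitosis is driven by cyclin-dependent kinase 1 (Cdk1) bound to cyclins A and B. The spindle checkpoint then holds the cell until every chromosome is attached. Cdc20 finally switches on the anaphase-promoting complex (APC/C), a ubiquitin ligase that destroys the cyclins. Many of these genes are repressed in resting cells by the DREAM complex and are switched on late in the cycle by MuvB with B-Myb and Foxm1. Both forms reach the promoter through short DNA words called the cell cycle genes homology region. RNA of sorted cells is an average, so more dividing cells and more RNA per dividing cell cannot be told apart in any value below.

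The promoters of these genes shared such words. RefSeq promoters (build GRCm38.p6, 250 bases before to 50 after each start site) were listed for 31 of the 36 genes. The words TTTGAA or TTCGAA, searched on both strands, were found in 24 of these 31 genes (77.4%), against 5 of 25 genes of a DNA replication and S phase list (20.0%) and 21.7% of all 27025 genes with a promoter. Counted by promoter, the shares were 78.8%, 16.7% and 19.2%. Of the 37 words found in the mitotic promoters 24 began within 60 bases of the start site, in a search that ended 50 bases after it. Words in both listed promoters of Ect2 and of Prc1 were counted for each promoter. Positions in all promoters were not counted, so whether this placement is particular to the mitotic genes was not tested. The CCAAT box, the word bound by NF-Y, was searched as CCAAT on both strands and stood in 26 of the 31 genes (83.9%), 16 of the 25 (64.0%) and 41.1% of all genes. The E2F words TTTCCCGC, TTTGGCGC and TTTCGCGC on both strands stood in 2 of the 31 mitotic genes (6.45%), against 11 of the 25 S phase genes (44.0%) and 2.12% of all genes. In the mitotic promoters 1 pair of words of different kinds overlapped. A match is a description of letters and does not show a bound site.

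Bases -170 to -1 relative to the start site are shown for Ccnb2, Cdc20 and Ube2c, which were higher in Treg than in TN and lower in GFPKO than in Treg. They are followed by Mki67, which was higher than in TN in both other groups, and by Kif23, which was lower than in TN in both. These 5 were picked after their values were seen. Capitals mark TTTGAA and CCAAT or their reverse complements TTCAAA and ATTGG. The stretches lie at chr9:70421555-70421724 on the minus strand, chr4:118437344-118437513 on the minus strand, chr2:164769759-164769928 on the plus strand, chr7:135716380-135716549 on the minus strand and chr9:61946800-61946969 on the minus strand.
Ccnb2: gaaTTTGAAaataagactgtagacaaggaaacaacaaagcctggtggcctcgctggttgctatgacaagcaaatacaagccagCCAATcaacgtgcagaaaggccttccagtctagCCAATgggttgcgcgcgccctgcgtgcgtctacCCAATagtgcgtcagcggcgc
Cdc20: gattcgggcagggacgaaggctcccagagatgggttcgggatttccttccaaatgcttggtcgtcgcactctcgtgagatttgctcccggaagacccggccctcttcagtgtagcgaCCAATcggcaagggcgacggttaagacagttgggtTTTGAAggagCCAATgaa
Ube2c: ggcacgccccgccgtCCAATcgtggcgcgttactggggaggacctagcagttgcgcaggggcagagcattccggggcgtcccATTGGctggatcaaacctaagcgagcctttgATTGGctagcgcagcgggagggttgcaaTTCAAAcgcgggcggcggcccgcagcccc
Mki67: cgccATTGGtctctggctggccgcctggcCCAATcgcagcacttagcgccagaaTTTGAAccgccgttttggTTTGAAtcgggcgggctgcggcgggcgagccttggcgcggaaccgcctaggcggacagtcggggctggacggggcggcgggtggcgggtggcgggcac
Kif23: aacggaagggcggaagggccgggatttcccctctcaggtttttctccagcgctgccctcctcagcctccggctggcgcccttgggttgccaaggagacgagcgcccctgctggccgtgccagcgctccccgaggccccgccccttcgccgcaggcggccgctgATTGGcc
Cdc20 had TTTGAA at base -18 between CCAAT boxes at -53 and -8. Ube2c had the word at -29 with CCAAT boxes upstream. In Ccnb2 a second TTTGAA began at base 5 after the start site, and in Kif23 the only one began at base 3. Melk, Birc5 and Nusap1, among the genes with the largest differences below, had neither word in the window. Of the 24 measured genes with TTTGAA or TTCGAA 13 were higher in Treg than in TN, and of the 6 without it 5 were.

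**Figure D1:**
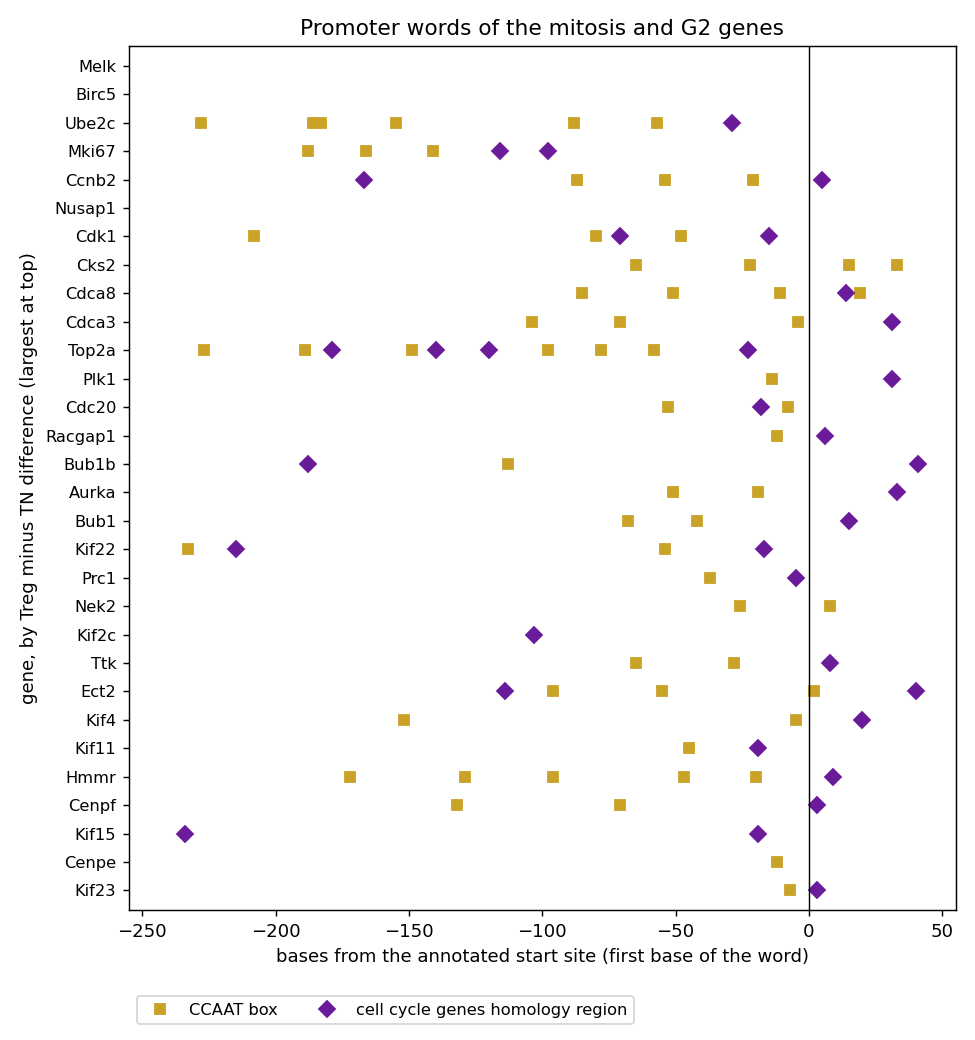
Position of the cell cycle genes homology region (purple diamonds) and of the CCAAT box (yellow squares) in the first listed RefSeq promoter of 30 measured genes. The x axis gives bases from the annotated start site, and genes are ordered by their Treg minus TN difference; most purple symbols lie near the start site, and Melk and Birc5 at the top have no symbol.

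Values are log2 expression values, and each gene is read from its brightest probe set that carries 1 gene symbol. A level of 3.99, the highest Foxp3 value on a TN array, is used as background. Where the lower group averaged at or below it, a fold is given as a lower bound, with each dim value raised to that level. Bub1, Ttk, Cenpe, Cenpf, Kif15 and Ect2 averaged at or below it in all 3 groups, and no fold is given for them. The Foxp3 probe set itself read 6.75 to 7.19 on GFPKO arrays, 3.29 to 3.64 on Treg arrays and 3.12 to 3.99 on TN arrays. The Treg values go against that label, so every direction below that involves Treg rests on how those arrays were labelled. Il2ra, Ctla4, Ikzf2 and Tnfrsf18, other markers of regulatory T cells, were each called higher in GFPKO and in Treg than in TN. Il2ra and Tnfrsf18 were also called lower in GFPKO than in Treg. The naive T cell markers Ccr7, Lef1 and S1pr1 were all called higher in GFPKO than in Treg. Their summed linear signal was 7078 to 8428 on GFPKO arrays, 3973 to 4483 on Treg arrays and 8140 to 8976 on TN arrays. Of the 6 CD4 T cell markers, Cd3e and Cd4 among them, 1 (Cd28) was called lower in Treg than in TN, and none was at background on every array. Xist read 11.07 to 11.85 on GFPKO arrays, 3.49 to 3.96 on Treg arrays and 3.72 to 3.84 on TN arrays, so sex and genotype cannot be told apart in any comparison with GFPKO. The median over all genes lay between 4.85 and 5.00 on GFPKO arrays, between 5.02 and 5.15 on Treg arrays and between 4.94 and 4.97 on TN arrays. Counts with each array centred on its median are therefore given once per comparison.

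The first comparison asked how the mitotic genes of Treg differ from those of naive cells. In Treg 21 of the 35 genes were higher than in TN and 1, Kif23, was lower, by limma with Benjamini-Hochberg adjustment over all genes and a threshold of 0.05. Of all genes 6.54% were higher and 3.42% lower by the same rule, 9.97% in either direction. The median log2 difference over the 35 genes was 0.87, against 0.03 over all genes, and 32 of the 35 differences were positive. The fitted log2 difference was at least 1, a doubling, in 17 of the 21, and in 16 with dim values raised to background, which gave a median of 0.75. All Treg arrays lay above all TN arrays in 22 of the 35 genes, as in 11.7% of all genes, and below them in 1, as in 7.84% of all genes. With centred arrays 19 were higher and 1 lower, with a median of 0.73.

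Among the genes of entry into mitosis 6 of 7 rose. Melk, a kinase of dividing cells, read 5.88, 5.86, 5.89, 6.05 and 5.76 on the Treg arrays, against 3.02, 3.51 and 3.68 on the TN arrays. The groups lay far apart, and the 5 Treg values spanned little. Melk was at least 3.72-fold higher in Treg (log2 difference 2.49 ± 0.17 SE, adjusted p = 6.7e-08 in limma). Cks2, a small subunit that binds Cdk1, read 8.89, 8.78, 8.71, 9.21 and 9.19 in Treg, against 7.08, 7.36 and 7.34 in TN. It was 3.25-fold higher with no overlap (1.70 ± 0.14, adjusted p = 7.4e-07). Ccnb2, the gene of cyclin B2, rose by 1.91 (adjusted p = 3.1e-06). Cdk1, at background in TN, was at least 3.12-fold higher (adjusted p = 3.2e-05), and Ccna2, cyclin A2, rose by 1.51. Plk1, the polo-like kinase that helps to activate Cdk1, rose by 1.01, although TN replicate 2 (5.27) lay above 2 of the Treg arrays (5.16 and 5.19). Foxm1, the transcription factor that drives many of these genes, did not pass the test, at 6.00 ± 0.13 in Treg and 5.75 ± 0.22 in TN (SD, n = 5 and 3, log2 difference 0.26 ± 0.14 SE, adjusted p = 0.35).

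Cdc20, Ube2c and Cdca3, the 3 genes named here for APC/C activity and protein degradation, rose. Ube2c, the ubiquitin-conjugating enzyme of the APC/C, read 6.84, 6.89, 6.90, 7.93 and 8.11 in Treg, against 4.83, 5.66 and 5.20 in TN. Every Treg array was above every TN array, and replicates 4 and 5 were the highest. The difference was 4.30-fold (log2 difference 2.10 ± 0.29 SE, adjusted p = 0.00010). Cdca3, which helps to degrade the Cdk1 inhibitor Wee1, read 6.63, 6.62, 6.68, 7.32 and 7.60 in Treg, against 5.81, 5.84 and 5.22 in TN. It was 2.54-fold higher (1.34 ± 0.23, adjusted p = 0.00078), again with replicates 4 and 5 on top. Cdc20, read from a probe set whose suffix marks possible cross-hybridisation, rose by 1.01.

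Aurkb, Birc5 and Cdca8, of the chromosomal passenger complex that corrects faulty attachments and later directs cytokinesis, rose as well. Birc5, survivin, read 6.36, 6.29, 6.65, 7.03 and 7.46 in Treg, against 4.77, 4.75 and 4.22 in TN. It was 4.52-fold higher with no overlap (log2 difference 2.18 ± 0.23 SE, adjusted p = 9.1e-06). Cdca8, borealin, read 6.77, 6.97, 6.86, 7.45 and 7.51 in Treg, against 5.52, 5.55 and 5.52 in TN. The TN arrays were almost level, and Treg was 3.00-fold higher (1.58 ± 0.20, adjusted p = 4.3e-05). Aurkb, the kinase of the complex, was at least 1.62-fold higher (adjusted p = 0.011), again from a probe set marked for cross-hybridisation.

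**Figure D2:**
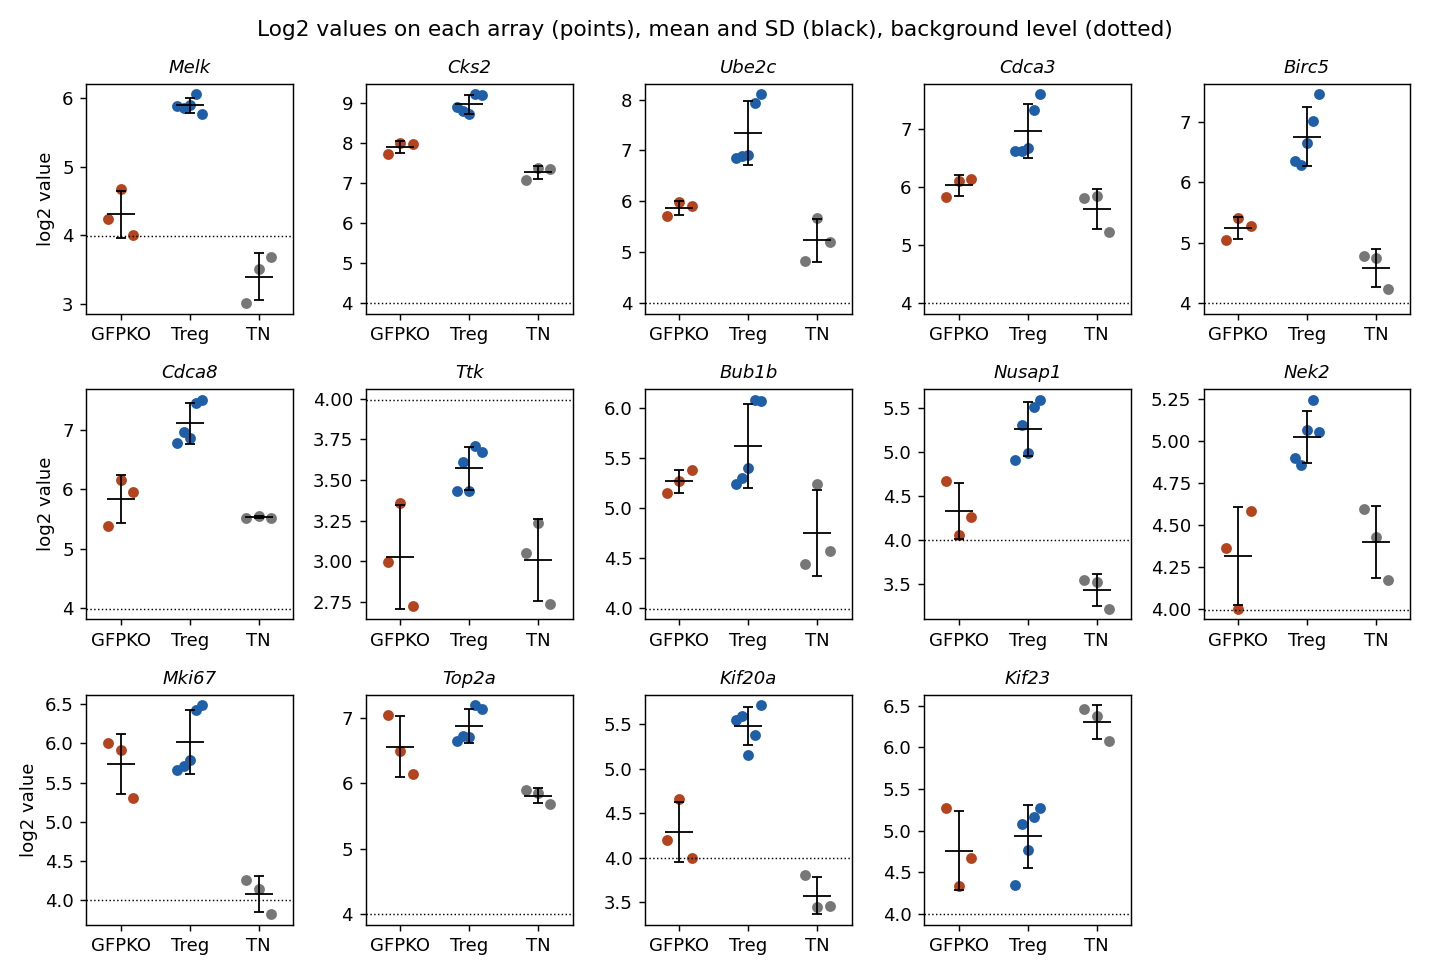
Log2 values of 14 genes, those with the smallest F-test p of each functional class, on GFPKO (left), Treg (middle) and TN arrays (right). Points are arrays in replicate order, black bars the mean and SD, and the dotted line the background level of 3.99; Treg lies above TN in all panels but Kif23, where TN lies highest, and Bub1b, where 1 TN array reaches the Treg range.

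Of the 5 spindle checkpoint and kinetochore genes, Bub1b alone averaged above background in any group. Bub1b, the checkpoint kinase BubR1, read 5.24, 5.31, 5.40, 6.09 and 6.07 in Treg, against 4.44, 5.24 and 4.57 in TN. It was 1.83-fold higher (log2 difference 0.87 ± 0.22 SE, adjusted p = 0.020), with TN replicate 2 at the level of the lowest Treg array. Another Bub1b probe set gave a wider log2 difference of 1.64, from a TN mean of 3.79, below background. In that probe set every Treg array lay above every TN array. Ttk, the checkpoint kinase Mps1, was also called (adjusted p = 0.031), but its values of 3.43, 3.61, 3.43, 3.71 and 3.67 in Treg and 3.05, 3.24 and 2.74 in TN all lay below background. Bub1, Cenpe and Cenpf were not called.

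Among 8 spindle assembly genes 2 rose, Nusap1 and Nek2. Nusap1, a microtubule-binding protein of the spindle, read 4.91, 5.31, 4.99, 5.50 and 5.59 in Treg, against 3.54, 3.51 and 3.22 in TN. Treg was at least 2.40-fold higher with no overlap (log2 difference 1.83 ± 0.18 SE, adjusted p = 3.9e-06). Nek2, a kinase that separates the centrosomes, read 4.90, 4.86, 5.07, 5.25 and 5.05 in Treg, against 4.60, 4.43 and 4.17 in TN. The groups did not overlap, but the difference was a smaller 1.54-fold (0.63 ± 0.15, adjusted p = 0.013). The kinase Aurka (log2 difference 0.75, adjusted p = 0.063) and its activator Tpx2 (0.70, adjusted p = 0.051) missed the threshold. Kif2c (0.59), Kif11 (0.40) and Hmmr (0.38) had positive differences and Kif15 one near 0 (-0.01), none of them called. The probe set of Kif2c is also marked for cross-hybridisation. Its next brightest probe set averaged 5.36 in Treg and 5.33 in TN, a log2 difference of 0.02, and a dimmer one above background gave 0.65.

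Of the genes of chromosome structure and movement Mki67 and Top2a rose. Mki67, the gene of the proliferation marker Ki-67, read 5.66, 5.71, 5.79, 6.43 and 6.49 in Treg, against 4.26, 4.14 and 3.81 in TN. It was 3.85-fold higher with no overlap (log2 difference 1.94 ± 0.22 SE, adjusted p = 1.7e-05). Top2a, the topoisomerase that untangles sister chromatids, read 6.64, 6.73, 6.70, 7.20 and 7.14 in Treg, against 5.90, 5.85 and 5.68 in TN. It was 2.10-fold higher (1.07 ± 0.19, adjusted p = 0.0012), with no overlap. The chromosome motors Kif22 (0.74, adjusted p = 0.057) and Kif4 (0.52, adjusted p = 0.14) were not called. Kif22 was read from a probe set marked for cross-hybridisation. Its other probe sets gave 1.21 and 0.57, with every Treg array above every TN array in both.

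The genes of the central spindle and cytokinesis split. Kif20a, a motor that carries the passenger complex to the central spindle, read 5.55, 5.60, 5.16, 5.38 and 5.72 in Treg, against 3.81, 3.45 and 3.45 in TN. Every TN value was below background, and Treg was at least 2.80-fold higher (log2 difference 1.91 ± 0.17 SE, adjusted p = 1.0e-06). Racgap1 (1.0, adjusted p = 0.011) and the microtubule bundler Prc1 (0.70, adjusted p = 0.015) also rose. Kif23, the motor subunit that forms the centralspindlin complex with Racgap1, went the other way. It read 4.35, 5.08, 4.77, 5.17 and 5.27 in Treg, against 6.46, 6.38 and 6.07 in TN. It was 2.60-fold lower in Treg with no overlap (-1.38 ± 0.22, adjusted p = 0.00053). This rests on 1 probe set. The other 2 Kif23 probe sets averaged between 2.06 and 2.41 in Treg and between 2.30 and 2.58 in TN, below background.

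**Figure D3:**
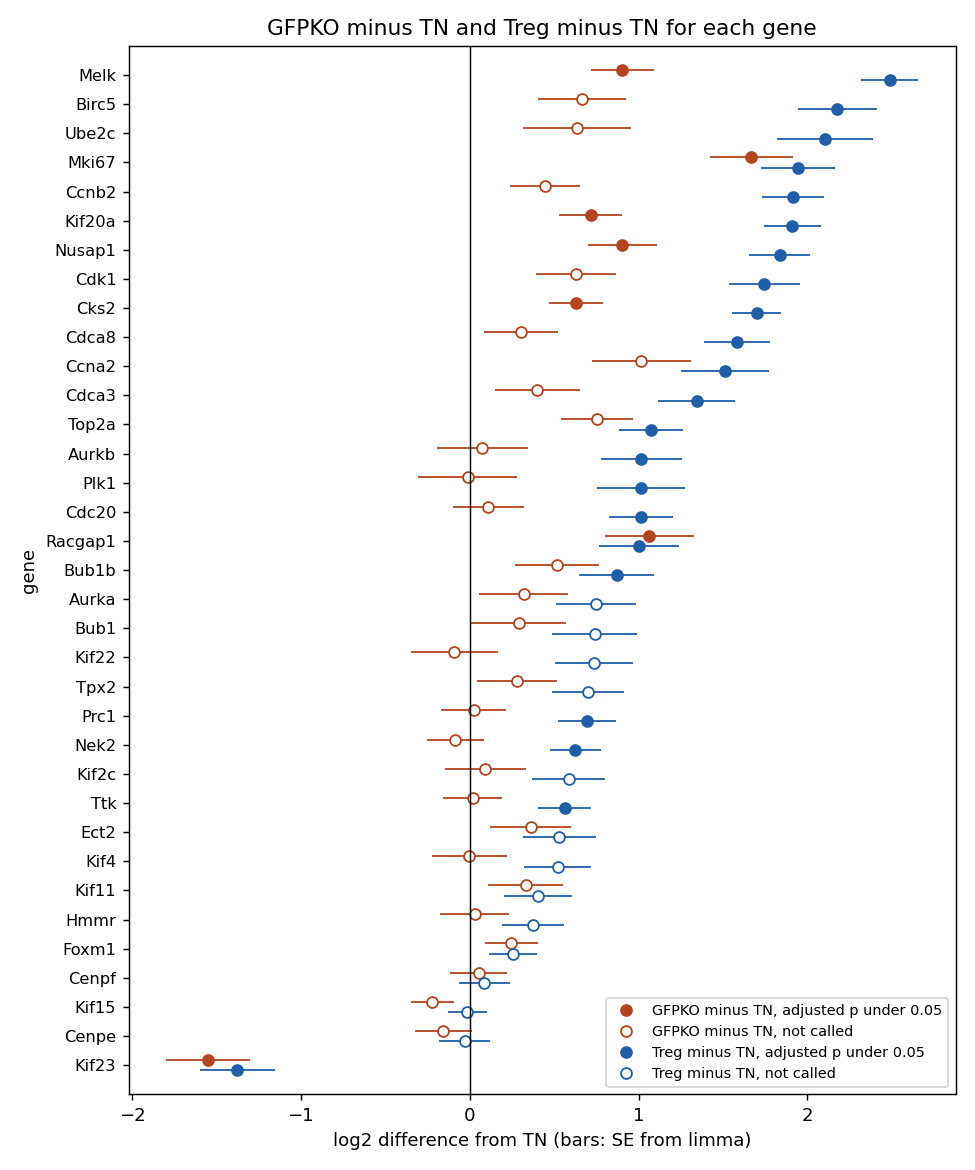
Log2 difference from TN of GFPKO (orange) and of Treg (blue) for each of the 35 genes, with limma's SE as bars; filled points passed an adjusted p of 0.05. Blue points lie right of 0 for 32 genes, orange points mostly lie between 0 and the blue ones, and Kif23 lies left of 0 for both.

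When single arrays were left out in turn, 15 of the 22 calls were kept in every fit. Without TN replicate 1 the calls of Plk1, Bub1b, Ttk, Aurkb and Prc1 were lost, and without TN replicate 3 those of Plk1, Bub1b, Ttk, Nek2, Prc1 and Racgap1. Without Treg replicate 4 those of Plk1, Bub1b and Ttk were lost, and without Treg replicate 2 or 5 that of Ttk. Their highest adjusted p in limma then lay between 0.088 for Racgap1 and 0.19 for Ttk.

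The Treg arrays were not alike in these genes. The median over the 35 genes relative to the TN mean was 0.73, 0.68, 0.79, 1.21 and 1.32 on replicates 1 to 5 of Treg, and 0.23, 0.48 and 0.27 on the GFPKO arrays. Replicates 4 and 5 each held the highest Treg value of 16 genes. In 25 of the 35 genes both lay above replicates 1, 2 and 3, as in 23.2% of all genes, and the median gap was 0.49 against 0.07 over all genes. Ube2c had the widest gap (1.14), followed by Aurka (0.84), Cdca3 (0.82) and Birc5 (0.81). Melk (0.03) and Kif20a (0.11) hardly differed between these arrays although both were far above TN. The labels name no batch that sets these 2 arrays apart. Without both, 14 genes were higher and 1 lower in Treg than in TN, a split chosen after seeing the data.

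**Figure D4:**
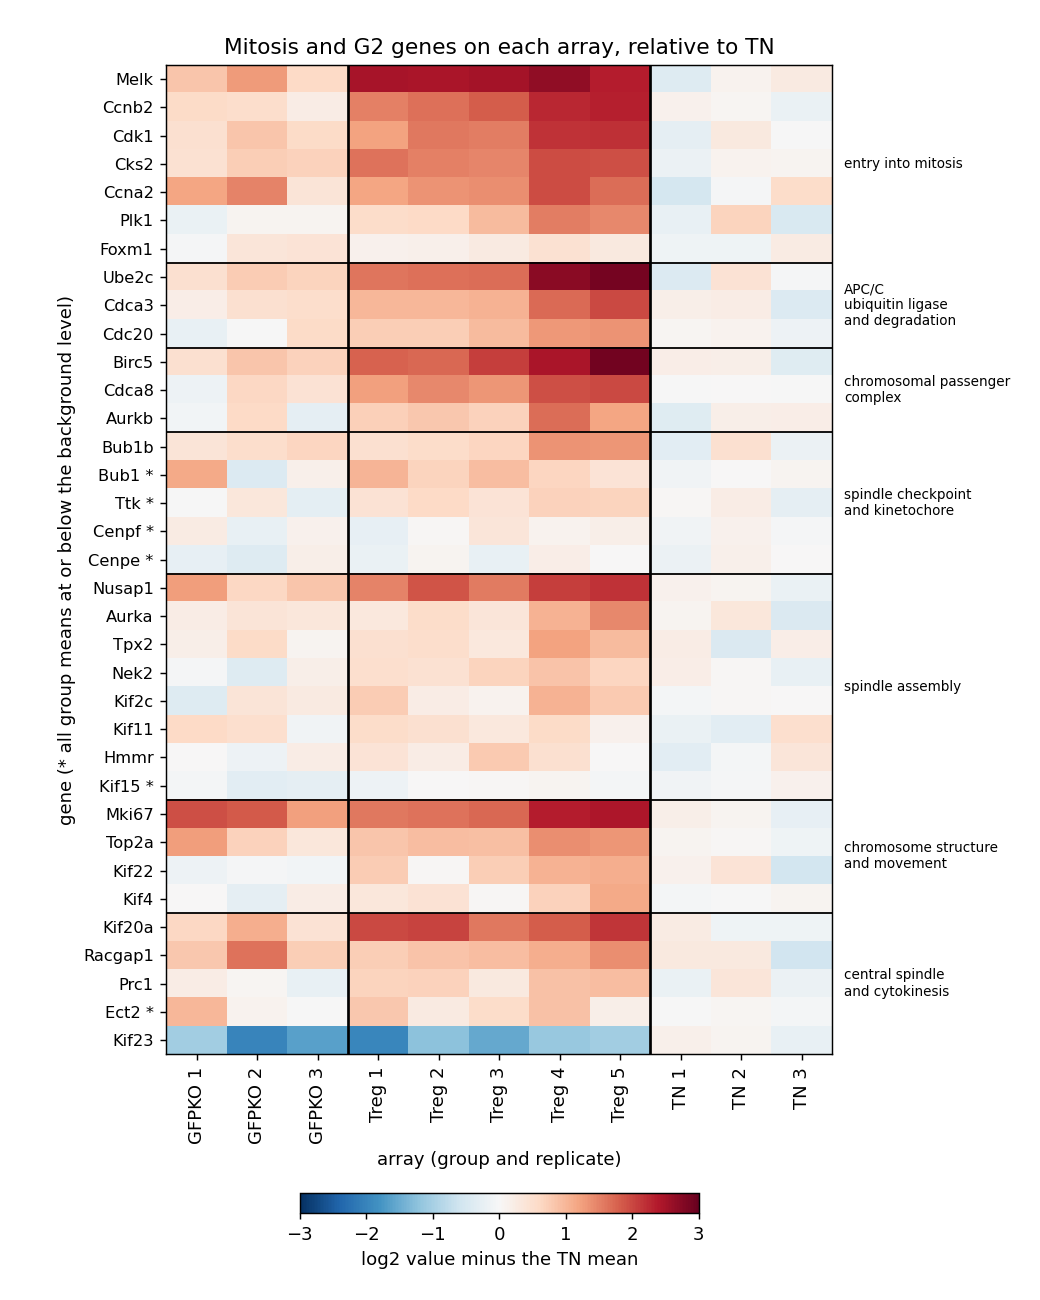
Each of the 35 genes (rows, by function) on each of the 11 arrays (columns), coloured by its log2 value minus the TN mean. Red marks values above TN, and Treg replicates 4 and 5 are the darkest for most genes. Mki67, Racgap1, Ccna2, Melk and Nusap1 are among the genes red on GFPKO arrays too, and Kif23 is blue outside TN.

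Markers of other cells were read beside these genes. The summed linear signal of 7 measured B cell markers was 123.3 to 171 on GFPKO arrays, 297 to 372 on Treg arrays and 143 to 159 on TN arrays, and 323 and 372 on Treg replicates 4 and 5. Without Cd79b it was 71.7 to 100.5 in GFPKO, 106 to 129 in Treg and 126 to 134 in TN, and Blk and Ebf1 were at or below background on every array. For 4 germinal centre and plasma cell markers the sum was 117 to 119 in GFPKO, 108 to 164 in Treg and 102 to 153 in TN. For 12 myeloid and dendritic markers it was 246 to 404 in GFPKO, 287 to 475 in Treg and 521 to 800 in TN, with Cd14 and Itgam at or below background throughout. For 4 erythroid markers it was 52.2 to 74.4 in GFPKO, 59.9 to 84.2 in Treg and 65.8 to 69.9 in TN, with Hba-a1 at or below background throughout. For 2 NK markers it was 18.4 to 28.8 in GFPKO, 15.9 to 19.2 in Treg and 401 to 556 in TN. Of these Ncr1 was at or below background on every array, so the TN level of that sum rests on Klrd1. Apart from the B cell sum with Cd79b, no summed level of these lists was higher on all Treg arrays than on all TN arrays. Of single markers in these lists, Cd79b, Prdm1 and Lyz2 were called higher in Treg than in TN, and of these Cd79b was also higher in GFPKO than in TN. The myeloid markers Fcgr3, Tyrobp, Fcer1g, Ly86, Siglech and Itgax, and Ms4a1, Mzb1 and Klrd1, were called lower in Treg than in TN. In GFPKO against Treg, Cd79b and Cd22 were called lower and Klrd1 higher. The part of other cells in the mitotic values was not tested.

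The second comparison asked whether cells that transcribe the Foxp3 null allele carry the same signal. In GFPKO 6 of the 35 genes were higher than in TN and 1, Kif23, was lower, against 2.64% and 3.02% of all genes (5.66% in either direction). All GFPKO arrays lay above all TN arrays in 11 genes, as in 7.06% of all genes, and below them in 1, as in 11% of all genes. The median log2 difference was 0.30, against -0.04 over all genes (0.25 for the 35 genes with dim values raised), and 28 of the 35 differences were positive. Mki67 differed most among the higher genes. It read 6.00, 5.92 and 5.30 on the GFPKO arrays, all above the TN arrays, and was 3.18-fold higher (log2 difference 1.67 ± 0.25 SE, adjusted p = 0.00049 in limma). Racgap1, which acts in cytokinesis, averaged 5.91 ± 0.50 in GFPKO and 4.85 ± 0.50 in TN (SD, n = 3 each), a 2.09-fold difference (1.06 ± 0.26, adjusted p = 0.025).

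Smaller differences were called in 4 further genes. Melk read 4.24, 4.67 and 4.0 in GFPKO and was at least 1.24-fold higher than in TN (adjusted p = 0.0083). Nusap1 read 4.67, 4.05 and 4.26 and was at least 1.26-fold higher (adjusted p = 0.014). Cks2, at 7.71, 7.99 and 7.96, was 1.55-fold higher (adjusted p = 0.031). Kif20a, at 4.20, 4.66 and 4.0, was at least 1.23-fold higher (adjusted p = 0.035). All 4 lay above every TN array. Top2a read 7.05, 6.50 and 6.14 in GFPKO, with no overlap with TN, but was not called (0.76 ± 0.21, adjusted p = 0.052). Ccna2 had a log2 difference of 1.02 with an adjusted p of 0.058. Kif23 read 5.27, 4.33 and 4.67 in GFPKO and was 2.92-fold lower than in TN (-1.55 ± 0.25, adjusted p = 0.0010).

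The calls against TN depended on single arrays except for Mki67 and Kif23, which were called in every fit that left out 1 array. Without TN replicate 1 the calls of Cks2 and Melk were lost, without TN replicate 2 those of Cks2 and Kif20a, and without TN replicate 3 those of Cks2, Nusap1, Kif20a and Racgap1. Without GFPKO replicate 2 the calls of Cks2, Kif20a and Racgap1 were lost, and without Treg replicate 2 that of Kif20a. The lost calls reached adjusted p between 0.053 for Melk and 0.17 for Cks2, and the total of 7 calls became 4 without TN replicate 3 or without GFPKO replicate 2. The actin control probe sets, a gauge of RNA integrity, read higher at the 3′ than at the 5′ end by 0.77, 0.83 and 0.45 on the GFPKO arrays, by 0.44 to 0.61 on Treg arrays and by 0.38 to 0.53 on TN arrays. With it as a covariate Mki67 and Kif23 were the 2 calls, and the part of RNA integrity in the other 5 was not tested further. Centred arrays gave 6 higher and 1 lower.

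The third comparison set GFPKO directly against Treg. No gene was called higher in GFPKO, 17 of the 35 were lower, and 34 of the 35 differences were negative. Of all genes 2.55% were higher and 6.88% lower, 9.43% in either direction. The median log2 difference was -0.52, against -0.08 over all genes (-0.49 for the 35 genes with dim values raised), and in the same 17 genes every GFPKO array lay below every Treg array, as in 11.1% of all genes. The reverse held in none of the 35 and in 3.31% of all genes. With centred arrays 13 were lower, with a median of -0.36. At an unadjusted p under 0.05 in limma, none was higher and 19 were lower, against 16.7% of all genes lower.

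The lower genes came from every class. Melk was 2.99-fold lower in GFPKO than in Treg (log2 difference -1.58 ± 0.17 SE, adjusted p = 2.5e-05). Birc5, at 5.05, 5.42 and 5.27 in GFPKO, was 2.85-fold lower (-1.51 ± 0.23, adjusted p = 0.00069). Ube2c, at 5.71, 5.98 and 5.91, was 2.76-fold lower (-1.47 ± 0.29, adjusted p = 0.0042). Ccnb2 averaged 4.94 ± 0.19 in GFPKO and 6.41 ± 0.37 in Treg (SD, n = 3 and 5) and was also 2.76-fold lower (adjusted p = 0.00012). Cdca8, at 5.38, 6.16 and 5.96, was 2.43-fold lower (adjusted p = 0.00070). The class of entry into mitosis thus had 5 of 7 genes lower, and Aurkb, Birc5, Cdca8, Cdc20, Ube2c and Cdca3 were all lower. The spindle checkpoint had 1 of 5 (Ttk, below background) and the spindle assembly class 2 of 8. Bub1b was not called from its brightest probe set (-0.35). Its other probe set above background averaged 4.47 in GFPKO and 5.43 in Treg (-0.96), with no overlap between these groups. Incenp, a further passenger complex subunit outside the 35 genes, was not called (-0.32, adjusted p = 0.18).

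Of the 6 genes called higher in GFPKO than in TN, Melk, Nusap1, Cks2 and Kif20a were among the 17 lower than in Treg, and Mki67 and Racgap1 were not. Top2a and Ccna2 were not called in either comparison of GFPKO. Mki67 averaged 5.74 ± 0.38 in GFPKO and 6.02 ± 0.41 in Treg (log2 difference -0.28 ± 0.22 SE, adjusted p = 0.50). Racgap1 averaged 5.91 ± 0.50 in GFPKO and 5.86 ± 0.25 in Treg (0.06 ± 0.24, adjusted p = 0.92). Top2a averaged 6.56 ± 0.46 in GFPKO and 6.88 ± 0.26 in Treg (-0.32 ± 0.19, adjusted p = 0.35). Ccna2 averaged 5.39 ± 0.57 in GFPKO and 5.89 ± 0.31 in Treg (-0.50 ± 0.26, adjusted p = 0.28). The other Ccna2 probe set averaged 5.08 in GFPKO and 6.05 in Treg, a wider log2 difference of -0.97. A missed threshold at these sample numbers does not show that the groups were alike.

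Across the 3 groups the mean was highest in Treg, next in GFPKO and lowest in TN for 27 of the 35 genes. In 4 genes GFPKO lay at or below TN with Treg on top, in 1 (Racgap1) GFPKO was highest, and in 3 (Kif23, Cenpe and Kif15) TN was highest. These counts include the 6 genes at or below background in all groups, whose order carries little weight. Bub1, Ttk, Cenpf and Ect2 are among the 27, and Cenpe and Kif15 among the 3. The share of all genes with each order was not counted. Among the 21 genes higher in Treg than in TN, the GFPKO minus TN difference was between -13.5% of the Treg minus TN difference for Nek2 and 106% for Racgap1. It was 85.7% for Mki67, 70.4% for Top2a and 67.2% for Ccna2, and 23.4% for Ccnb2, 19.2% for Cdca8, 11% for Cdc20 and -1.22% for Plk1. The place of Ccna2 depends on the probe set. Its other probe set, of similar level, differed from TN by 0.73 in GFPKO and by 1.70 in Treg. These shares use the same TN arrays on both sides and were not tested against each other.

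When single arrays were left out, 10 of the 17 calls of GFPKO against Treg were kept in every fit. Without GFPKO replicate 1 the calls of Plk1, Ttk, Aurkb, Kif22 and Cdca3 were lost, without GFPKO replicate 2 those of Plk1, Nek2, Kif22 and Prc1, and without GFPKO replicate 3 those of Ttk, Aurkb and Prc1. Without Treg replicate 4 or 5 the calls of Plk1, Ttk, Kif22 and Prc1 were lost, and without replicate 5 also that of Aurkb. Ttk was further lost without TN replicate 1 or Treg replicate 2 or 3, and Kif22 without Treg replicate 1 or 3. These genes reached their highest adjusted p in limma between 0.052 for Nek2 and 0.10 for Ttk, and the count lay between 12 without Treg replicate 5 and 17. Without both Treg replicates 4 and 5 the count of lower genes was 9. The actin readings given above were higher on GFPKO replicates 1 and 2 (0.77 and 0.83) than on any Treg array. The part of RNA integrity in the 17 calls was not tested further.

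Other genes of the cell cycle were read from lists chosen with earlier results of these data known. Of all genes 6.54% were called higher and 3.42% lower in Treg than in TN, and 2.64% and 3.02% in GFPKO than in TN. In GFPKO against Treg the shares were 2.55% and 6.88%. A count of 1 gene in a list is not set apart from these shares. Of 28 measured DNA replication and S phase genes 18 were higher in Treg than in TN and none lower. GFPKO had 5 of them above TN, and 10 below Treg. Tk1, thymidine kinase, had log2 differences of 2.39 (Treg against TN), 0.92 (GFPKO against TN) and -1.48 (GFPKO against Treg), all called. Rrm2, a subunit of ribonucleotide reductase, gave 2.12, 1.41 and -0.71 in the same order, and Uhrf1, which maintains DNA methylation, 1.93, 1.09 and -0.84. The replication licensing factor Cdc6, below background in TN, was at least 2.74-fold higher in Treg and at least 1.45-fold higher in GFPKO than in TN, and lower by a log2 difference of -0.92 in GFPKO than in Treg. Of 38 other mitosis genes 9 were higher in Treg than in TN, among them Incenp (log2 difference 0.66). Espl1, separase, was at least 1.80-fold higher, Spc25, a kinetochore protein, at least 1.72-fold and Cep55, which acts in the last step of cytokinesis, at least 1.14-fold, since all 3 averaged below background in TN. In GFPKO 8 of these 38 were lower than in Treg and 1, the condensin gene Smc4 (0.73), was higher, which was also the only one called against TN (0.99).

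Genes that set the decision to divide changed in both directions. Of 12 G1 cyclin and E2F genes, 3 were higher and 1 lower both in Treg and in GFPKO than in TN. Cdk6, a kinase of the G1 phase, differed by 1.48 in Treg and 2.16 in GFPKO, E2f2 by 1.32 and 1.06, Myc by 0.69 and 0.59, and Ccnd1, cyclin D1, by -1.27 and -1.51. None of the 12 was called between GFPKO and Treg in limma, and 4 had an unadjusted p under 0.05, counted in either direction. Of all genes 16.7% were lower in GFPKO at that unadjusted threshold, and the share higher was not computed. Of 10 CDK inhibitors and pocket proteins, Cdkn2c (0.85) and Cdkn1c (0.75) were higher and Cdkn2d (-0.55) lower in Treg than in TN. In GFPKO Cdkn2c (0.64) and the retinoblastoma gene Rb1 (1.0) were higher than in TN, and Cdkn1c was lower than in Treg (-0.54). Of 13 APC/C subunits and regulators only Cdc23 (0.45) was called in Treg and only Anapc13 (-0.44) in GFPKO against Treg. Of 9 DREAM and MuvB genes only Tfdp1 (0.42) was called, in Treg, while Mybl2, which encodes B-Myb, was not called there (adjusted p = 0.073).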

How the data were processed

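The values were deposited on the log2 scale. The authors made them with RMA, per the submitters' processing notes, a method of background correction, quantile normalisation and summary of the probes of each probe set. No RMA version is stated, and the log2 scale was inferred from their range, 1.54 to 14.65. The table held 45101 probe sets on 11 arrays. The 34945 probe sets with 1 gene symbol, of which 34741 matched RefSeq by Entrez ID, gave 18193 genes, each taken from its brightest probe set. Control probe sets (64), 932 with several symbols and 9160 unlisted ones were left out. No depth or detection call was used, and the number of arrays limits the precision.

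Each gene was fitted with 1 mean per group over all arrays in limma 3.58.1 (R 4.3.3), with empirical Bayes moderation, two-sided tests and Benjamini-Hochberg adjustment over all genes per contrast. The fit was tested on simulated data. The 36 genes, the other lists and the tests were chosen with earlier results of these data known. Values on every array are printed for the 2 genes of each functional class with the smallest F-test p, and of each other list the 4 genes with the smallest adjusted p could be named, plus any called against the list's majority. The background level was chosen after the values were seen. Alternatives changed the probe set, a filter on dim genes, the samples fitted, the replicate block, array weights, moderation, centring, an actin covariate and the arrays left out.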

Additional observations from a re-analysis of the deposited data

How the results depend on the processing

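The count of Treg minus TN calls (22) stayed within 1.5 times under every alternative, between 16 and 28 with 1 array left out and 15 without Treg replicates 4 and 5, the last chosen after seeing the data. The count of GFPKO minus TN calls (7) was 4 with the next brightest probe set, 3 in a fit of only those groups, 19 with array weights, 2 with the actin covariate and 4 to 9 with 1 array left out. The count of GFPKO minus Treg calls (17) was 9 without Treg replicates 4 and 5 and 12 to 17 with 1 array left out. Gene by gene, 11 of the 22, 1 of the 7 and 8 of the 17 calls were kept under every alternative. Whether the replicate numbers of the labels pair the arrays could not be decided. Deviations of same-numbered arrays correlated between 0.16 and 0.51 for replicate 1 and between -0.22 and 0.07 for replicates 2 and 3. Arrays of different numbers were not correlated for comparison. With the replicate block the counts were 18, 10 and 10 in the order above. The next brightest probe set turned the Treg minus TN difference of Ttk to -0.089 and of Kif23 to 0.11, neither called, and for both genes that probe set was below background. Otherwise the cause of these changes was not tested. The filter on dim genes left out genes without a group mean above 5. Signal near background limits Bub1, Ttk, Cenpe, Cenpf, Kif15 and Ect2.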
